A study of Homo sapiens with 7 samples.

Results

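Downstream antisense TSSs (daTSSs) are positions within 2000 nts downstream of a gene TSS at which transcription starts on the opposite strand, toward the gene's own promoter. Of 2956 daTSSs called in T47D/A1-2 cells, 448 (15.2%) lay more than 1000 and up to 2000 nts from their gene TSS and are called distant here. They were chosen by that distance alone, which is a measured value, and they sit downstream of 4.31% of the 10391 called gene TSSs. The annotation gave a gene for 445 of them. These belong to 444 genes, because ZNF398 carries a pair of called gene TSSs that each have a distant daTSS. The other 2508 daTSSs, at 1 to 1000 nts, served as the comparison, and the 979 of them beyond 525 nts, called intermediate, are the nearest in distance.

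RNA polymerase II often starts in both directions at active promoters of mammalian cells. The transcript that leaves a promoter upstream on the opposite strand begins at an upstream antisense TSS (uaTSS) and is usually short and unstable. A daTSS differs in that its polymerase heads into the promoter, so that sense and antisense transcription converge inside the gene. Many such promoters lie in CpG islands, stretches in which CpG dinucleotides escaped the loss seen in the rest of the genome.

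The calls come from Start-seq, which sequences the capped 5’ ends of short nuclear RNAs and so places each start at a single nucleotide, and RNA levels come from RNA-seq of the same cells. The sample labels name the cells T-47D, a human breast cancer line of luminal type. The study describes its cells as T47D/A1-2, a derivative made to overexpress the rat glucocorticoid receptor that also holds an integrated luciferase reporter driven by the MMTV promoter. They grew in medium with 10% serum and were moved to 5% charcoal-stripped serum for at least 24 hours, and this was the 1 condition measured, with no hormone arm analysed here.

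The TSS calls were made on replicate 1 of the 2 Start-seq libraries. The FPKM values (fragments counted relative to transcript length and library size) are a single column that the authors made by merging 3 RNA-seq replicates. Neither kind of file holds a read count per call or a value per replicate, so the depth is unknown and no difference could be set against replicate error. Intervals are at 95% and cover the counting of calls or genes in this 1 data set only. The luminal markers were high (KRT8 at an FPKM of 1142, GATA3 at 360.4, EPCAM at 146 and the lowest, ESR1, at 44.1). The basal keratins KRT5 and KRT14 were listed at 0, and the basal marker TP63 was at 0.517. Of the stromal, endothelial and immune markers, COL1A1 was at 8.82, VIM at 0.864, COL1A2 at 0.0334, PTPRC at 0.0208 and PECAM1 at 0.00291.

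The sequences of a few distant daTSSs show what these start sites look like. Each is written 5’ to 3’ in the antisense direction in hg19, from 40 nts before to 20 nts from the daTSS onward. A TATA-like match, TATAA or TATAT beginning 35 to 24 nts before the start, was found at 13 of the 448. Those of the first 5 in genome order are printed because they carry a classical promoter element, set in capitals, deep inside a gene. They lie in TTC32 at chr2:20099866-20099925 on the plus strand, in UBP1 at chr3:33479844-33479903 on the plus strand, in TFG at chr3:100429516-100429575 on the minus strand, in SIDT1 at chr3:113253287-113253346 on the minus strand and in ZBTB2 at chr6:151710855-151710914 on the plus strand.

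TTC32: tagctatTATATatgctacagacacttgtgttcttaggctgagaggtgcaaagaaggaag

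UBP1: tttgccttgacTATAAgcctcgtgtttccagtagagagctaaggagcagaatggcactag

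TFG: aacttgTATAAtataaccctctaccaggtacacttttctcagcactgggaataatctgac

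SIDT1: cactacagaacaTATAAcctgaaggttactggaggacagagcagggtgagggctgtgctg

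ZBTB2: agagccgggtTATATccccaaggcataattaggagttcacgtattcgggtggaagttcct

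All 5 of these daTSSs were in intron 1 of the gene's nearest transcript, beside 72.1% over the distant group. A uaTSS was called at all 5 gene TSSs, beside 54.7% over the distant group and 53.1% over all gene TSSs. These 5 of the 13 are too few to set against those shares. The motif began 33 nts before the start in TTC32, 29 nts in UBP1, 34 nts in TFG, 28 nts in SIDT1 and 30 nts in ZBTB2.

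A second set shows the distant daTSSs closest to the annotated start of a transcript on their own strand, which places the call beside a known RNA. They are in PPP1R26 at chr9:138372561-138372620 on the minus strand, in JAG1 at chr20:10653303-10653362 on the plus strand, in CYP1B1 at chr2:38301979-38302038 on the plus strand, in FAM219A at chr9:34457379-34457438 on the plus strand and in CCDC85A at chr2:56412894-56412953 on the minus strand. Capitals mark the initiator-like letters CANA or CANT, in which the A is the called start.

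PPP1R26: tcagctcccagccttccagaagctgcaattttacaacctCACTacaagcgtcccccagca

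JAG1: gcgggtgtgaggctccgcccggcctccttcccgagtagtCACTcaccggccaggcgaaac

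CYP1B1: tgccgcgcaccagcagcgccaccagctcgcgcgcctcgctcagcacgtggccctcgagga

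FAM219A: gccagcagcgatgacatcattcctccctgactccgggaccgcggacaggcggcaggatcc

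CCDC85A: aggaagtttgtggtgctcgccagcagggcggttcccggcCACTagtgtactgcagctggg

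The daTSS in PPP1R26 fell on the annotated start of the lncRNA PPP1R26-AS1, a distance of 0 nts, and that in JAG1 on the start of an unnamed lncRNA (ENSG00000270792), also at 0 nts. JAG1 encodes a Notch ligand. In CYP1B1, which encodes a cytochrome P450 that oxidises estrogens, the daTSS was 3 nts from the start of CYP1B1-AS1. In FAM219A it was 7 nts from an annotated start of the protein-coding gene DNAI1, and in CCDC85A 8 nts from a lncRNA start.

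The last pair are the daTSS of the gene with the highest FPKM, CFL1, and the most distant of all, in H2AC6. They lie at chr11:65624495-65624554 on the plus strand and at chr6:26126381-26126440 on the minus strand.

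CFL1: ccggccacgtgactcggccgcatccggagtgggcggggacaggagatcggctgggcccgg

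H2AC6: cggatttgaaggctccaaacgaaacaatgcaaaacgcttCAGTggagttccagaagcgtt

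CFL1 encodes cofilin, which severs actin filaments, and its daTSS has neither set of letters, although the GC box GGGCGG stands just before it. An annotated start of the protein-coding gene MUS81 lies 62 nts from this daTSS on the same strand. H2AC6 encodes a histone H2A, and the letters CAGT stand at its daTSS.

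The distances themselves chose the distant daTSSs and are given as a description. Their number per 100 nts fell from 103 in the bin up to 1100 nts and 89 in the bin up to 1200 nts to 17 in the bin up to 2000 nts. Their median distance was 1241 nts, with quartiles at 1110 and 1568 nts. From 1300 to 1900 nts the bins held 25 to 40 daTSSs each, without a steady decline. In all, 311 lay at 1500 nts or less and 137 farther out.

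**Figure D1:**
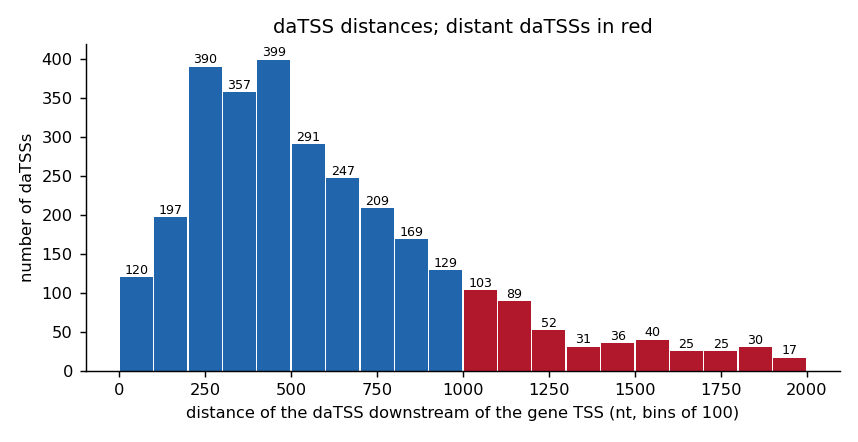
Number of daTSSs (y axis) by distance downstream of the gene TSS in bins of 100 nts (x axis), with distant daTSSs in red and all others in blue. Counts peak at 399 per bin in the bin up to 500 nts, and the 10 bins beyond 1000 nts hold 103 to 17.

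The limit of 1000 nts fell inside a continuous series of distances. Just inside it were POLR3E at 1002 nts, TRPC1, SNRNP48 and ZNF875 at 1003 nts, and AIDA at 1004 nts, a distance that PARD3B shares. Just outside it were EEIG2 and HNRNPF at 1000 nts, NMRAL1 at 999 nts, and MAP3K1 and NFKBID at 997 nts. At the far end were H2AC6 at 2000 nts, IRF2 at 1999 nts and BST2 at 1996 nts, the last call being at the edge of the authors' search window. IRF2 encodes an interferon regulatory factor and BST2 the tetherin protein that holds enveloped viruses at the cell surface.

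Upstream antisense transcription was called less often beside a distant daTSS than beside a nearer one. A uaTSS was called at 245 of the 448 gene TSSs (54.7%, 49.9% to 59.4%), against 62.6% of the other daTSSs' gene TSSs and 60.8% of those with an intermediate daTSS. The difference from all others was -7.91 percentage points (-12.9 to -2.98). Over all 10391 gene TSSs the share was 53.1%, so the distant group stood close to this background and the nearer daTSSs above it, while gene TSSs with no daTSS had a uaTSS in 49.8%. When gene TSSs with a called neighbour inside 5000 nts were left out, the difference was -5.05 points and its interval reached 0 (-10.5 to 0.219).

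Where a uaTSS was called, it also lay farther out. Its median distance upstream was 257 nts (226 to 290, n = 245) at gene TSSs with a distant daTSS and 195 nts (188 to 205, n = 1570) at the others. In 59.5% of all pairs drawn from both groups, the uaTSS of the distant group was the farther one (55.6% to 63.4%), where 50% would mean no difference. Against intermediate daTSSs, this figure was 58.2% (53.8% to 62.5%). SMARCA2, which encodes the BRM ATPase of the SWI/SNF remodeler, is an extreme case, with its uaTSS 1000 nts upstream and its daTSS 1989 nts downstream.

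The genes with a distant daTSS were expressed at slightly higher RNA levels. Their median FPKM was 23.2 (19.4 to 27.4, n = 440, as 8 had no FPKM), against 17.7 (16.6 to 18.7, n = 2478) for the others, a difference of 0.39 between medians of log2(FPKM + 0.1). In 54.2% of pairs the distant group's gene was the more highly expressed (51.3% to 57.2%). Against genes with an intermediate daTSS, whose median was 18.3, it was 52.7% and the interval included 50% (49.4% to 56.0%). Genes with no daTSS had a median of 16.3.

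Within the distant group, RNA level differed with the uaTSS call. The median FPKM was 28.6 in the 243 genes with a uaTSS and 17.1 in the 197 without, and the former were higher in 60.9% of pairs (55.6% to 66.1%). Distant daTSSs stood above the others within each class, in 55.4% of pairs among gene TSSs with a uaTSS and in 55% among those without. The highest levels were 963.7 in CFL1, whose daTSS is at 1116 nts, 349.7 in EIF3H, a subunit of translation initiation factor eIF3, and 344.8 in PABPC1, the cytoplasmic poly(A)-binding protein. At the low end, 10 of 440 genes (2.27%) had an FPKM under 1, against 3.91% of the others, a difference of -1.64 points with an interval of -2.97 to 0.344. These 10 include JAG1 (0.395), FOSB (0.779) and the histone genes H3C3 (0.396), H1-3 (0.124) and H2AC14 (0.332).

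**Figure D2:**
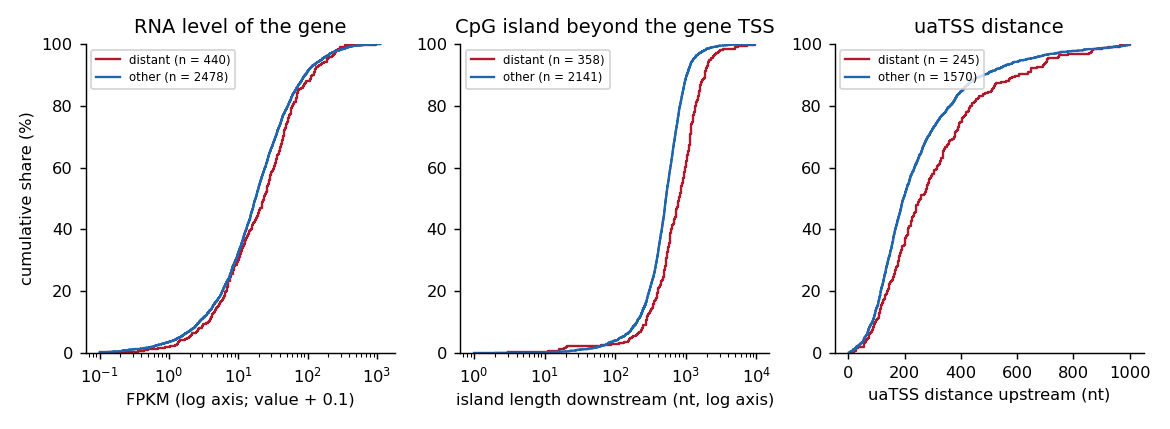
Cumulative share of gene TSSs (y axis, percent) by FPKM plus 0.1 (left, log axis), by length of the CpG island downstream of the gene TSS (middle, nts, log axis, lengths under 1 drawn at 1) and by uaTSS distance (right, nts), for distant daTSSs (red) and all others (blue). The red lines lie to the right over most of each panel, with medians of 23.2 against 17.7 FPKM, 802 against 522 nts and 257 against 195 nts.

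Gene length did not separate the groups. The median was 36678 nts for genes with a distant daTSS and 37837 nts for the others, and the distant group was longer in 49.6% of pairs (46.6% to 52.7%). The longest genes were CCSER1, GPC6, a glypican, and PARD3B, a cell polarity gene. Their lengths were 1477902, 1181215 and 1074689 nts, and their FPKM values lay between 1.85 and 2.00. The shortest was the microRNA gene MIR484 at 79 nts, listed at an FPKM of 0, to which the call was assigned because its start is the nearest annotated one. In 6 of 445 genes, MIR484 and 5 histone genes, the whole gene was shorter than the distance to the daTSS.

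The first exon was longer in the distant group, with a median of 227 nts (206 to 254) against 182 nts (174 to 191). It was the longer one in 57.0% of pairs (54.0% to 59.9%), and in 55.4% against intermediate daTSSs (52.2% to 58.6%). The first intron had a median of 5084 nts against 4458 nts and was longer in 53.3% of pairs (50.2% to 56.4%), but against intermediate daTSSs the interval included 50% (53.0%, 49.7% to 56.3%).

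Most distant daTSSs were intronic. By all transcripts of the gene, 350 of 445 (78.7%) were in an intron, 88 (19.8%) in an exon and 7 (1.57%) outside, whereas 56.8% of the other daTSSs were in an intron and 38.6% in an exon. Position and distance are bound together, since exons near a gene TSS are crossed within a short distance, so these shares are a description. Along the transcript whose start was nearest, 321 were in intron 1, 44 in intron 2, 12 in intron 3, 23 in exon 1 and 25 in exon 2. The exonic cases include the intronless JUND.

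Another called gene TSS was nearby more often than for other daTSSs. Within 5000 nts, in either direction and on either strand, 72 of the 448 gene TSSs (16.1%) had another called gene TSS, against 9.41% of the others, a difference of 6.66 points (3.33 to 10.5). Both were below the share over all gene TSSs, which was 22.5%, and gene TSSs with no daTSS had one in 27.3%. The excess over other daTSSs was on one side. A called gene TSS on the opposite strand upstream was present within 5000 nts at 12.3% against 5.10%, while on the same strand downstream it was 0.670% against 1.71%, with a difference interval of -1.78 to 0.309 points. The authors had removed daTSSs within 1000 nts of an annotated start on the daTSS's strand. A start upstream of the gene TSS can lie that close to a nearer daTSS but not to a distant one. The excess on this side cannot be told apart from the effect of that filter.

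Divergent promoter pairs, in which a neighbouring gene starts upstream in the other direction, made up 39 of these 72. A divergent gene TSS was called within 1000 nts upstream at these 39 of 448 (8.71%), against 1.83% of the other daTSSs and 3.88% of intermediate ones. The difference from all others was 6.87 points (4.52 to 9.88), while the share over all gene TSSs was 11.5%. The authors' filter could remove nearer daTSSs at such pairs, but no distant one on account of its divergent neighbour. This difference cannot be told apart from the effect of that filter. The divergent TSS lay 51 to 941 nts away, with a median of 262 nts, and a uaTSS was called at 10 of the 39 (25.6%), beside 54.7% over the distant group and 53.1% over all gene TSSs. Most gene TSSs in both of these groups had no divergent neighbour, so they are not a like comparison for divergent pairs.

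Some of these pairs, named after their values were seen, follow. BRD9, a bromodomain subunit of SWI/SNF, starts 112 nts from TRIP13 and has its daTSS at 1007 nts. AIDA starts 73 nts from BROX, with a daTSS at 1004 nts, and NDUFAF2, a complex I assembly factor, 67 nts from ERCC8, with a daTSS at 1032 nts. IRX2, a homeobox gene, and its divergent transcript IRX2-DT start 262 nts apart, and each has a distant daTSS, at 1178 and 1253 nts. They were the 2 distant daTSSs whose divergent partner was itself in the distant group. None of these 5 gene TSSs had a called uaTSS, whereas 10 of all 39 (25.6%) did, among them CPSF3 and HMMR. The 5 were picked, so their count says nothing of the 39.

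Histone genes with a distant daTSS were singled out after their values were seen. Of 47 called gene TSSs of histone genes by symbol, 20 had a daTSS, where 28.4% of all gene TSSs had one. Of these 20, 7 were distant, beside 15.2% over all daTSSs. A uaTSS was called at 0 of the 7, beside 54.7% over the distant group and 53.1% over all gene TSSs. Most gene TSSs behind these shares had no divergent neighbour, whereas 4 of the 7 had one. H2AC6, H2BC12, H2AC14 and H2BC15 start 246, 250, 239 and 210 nts from another called histone gene TSS on the opposite strand. H1-10, H3C3, H1-3, H2BC12 and H2AC14 are shorter than the distance to their daTSS, so that the call lies beyond the end of the gene. Their FPKM ranged from 0.124 in H1-3 to 196.6 in H2BC12, and the labels describe the RNA-seq as poly(A)-enriched, whereas most replication-dependent histone mRNAs lack a poly(A) tail. Where a histone gene has near-identical copies, reads may also be split between them, so these FPKM values are uncertain.

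Alternative starts of the same gene near the daTSS were less frequent than for other daTSSs. An annotated start on the gene's strand lay within 1000 nts beyond the daTSS in 85 of 445 (19.1%), against 31.0%, a difference of -11.9 points (-15.8 to -7.62). Against intermediate daTSSs, at 23.3%, it was -4.24 points with an interval that included 0 (-8.60 to 0.430). The window began at the daTSS, so it lay farther into the gene for distant daTSSs than for nearer ones. These differences cannot be told apart from the effect of searching unlike stretches. In 81 of the 85 cases the start belonged to the same gene. In CFL1 it was 31 nts beyond the daTSS, and in FOSB 65 nts. A daTSS in such a place lies where a uaTSS of the inner start would. The authors had removed calls with a gene-strand position in this stretch that held at least 10% of the gene TSS's Start-seq reads, and weaker use of the inner start cannot be read from the deposited positions.

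Annotated antisense transcripts were also less frequent when all transcript types were counted. A transcript start on the daTSS's own strand lay within 1000 nts on either side in 59 of 448 (13.2%), against 25.4%, a difference of -12.3 points (-15.6 to -8.44). For nearer daTSSs this window reached back past the gene TSS, where divergent transcripts start, and for distant ones it did not. The groups were thus searched over unlike stretches, and the difference cannot be told apart from the effect of the window. The authors had already removed daTSSs within 1000 nts of a start on that strand in their own, earlier annotation, so the starts counted here are ones that the annotation used here lists there. With protein-coding transcripts alone, the shares were 3.35% and 4.39%, and the interval of the difference included 0 (-2.61 to 1.19). Of the 59 starts, 38 belonged to lncRNAs and 18 to protein-coding genes, among them that of MUS81, 62 nts from the daTSS in CFL1. Within 100 nts the shares were 4.24% and 5.10%, and the interval of the difference included 0 (-2.64 to 1.56). Beyond 1500 nts the share was 6.57%, and up to 1500 nts it was 16.1%, a difference of -9.51 points (-15.0 to -2.95).

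The CpG islands over these gene TSSs reached farther into the gene. An island, found as a run of at least 200 nts with over 50% GC and an observed to expected CpG ratio above 0.6, covered 358 of the 448 gene TSSs (79.9%) and 85.4% of the others. With stricter islands (500 nts, 55% GC and a ratio of 0.65), these shares were 75.4% and 74.1%, and the sign of the difference turned. Downstream of the gene TSS the island ran for a median of 802 nts (715 to 903), against 522 nts (507 to 535) for other daTSSs and 458 nts (450.0 to 469) where no daTSS was called. It was longer for the distant daTSS in 66.8% of pairs (63.4% to 70.2%), and in 62.1% against intermediate daTSSs (58.4% to 65.8%).

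Even so, most distant daTSSs were past the end of the island. They lay a median of 465 nts (366 to 542) beyond the edge, against 75 nts inside it for the others (-75.0, -90.0 to -64.0). Of the 358, 102 (28.5%) were within 250 nts of the edge, against 57.6% of the others, and 83 daTSSs were inside the island of their gene TSS. A further 33 of the 448 lay in a separate island. Distance chose these daTSSs, so that these positions follow in part from the choice.

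The GC content around the gene TSS showed the same extent. In the first 100 nts downstream it averaged 67.7% ± 0.507 (SE, n = 448) for the distant group and 67.7% ± 0.179 (n = 2508) for the others. At 600 to 699 nts it was 62.7% ± 0.633 against 56.1% ± 0.272. At 1200 to 1299 nts it was 54.8% ± 0.606 against 46.4% ± 0.244, with 46.7% ± 0.404 for intermediate daTSSs. That window lies where the distant group's own daTSSs were chosen to be, and none of the comparison's lie there. GC content also rises near a daTSS, so this difference may follow in part from the choice. The groups were alike at the gene TSS and parted inside the gene. A smaller excess was present upstream, where 51.3% ± 0.609 stood against 48.8% ± 0.242 at 900 to 801 nts before the gene TSS.

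At the daTSS itself the sequence was less GC-rich than at nearer daTSSs. The median GC content of the 100 nts around the start was 57% (55 to 58), against 63% (63 to 64) for all others and 59% (58 to 60) for intermediate ones. GC content was higher in the 500 nts ahead of the antisense polymerase, toward the promoter, than in the 500 nts behind it at 77.7% of distant daTSSs, 84.3% of the others and 88.3% of intermediate ones.

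Initiator-like and TATA-like letters were more frequent at distant daTSSs than at all others, and GC boxes less frequent. The initiator-like CANA or CANT, with the A at the start, was found at 134 of 448 (29.9%) against 24.7%, a difference of 5.19 points (0.783 to 9.88). For any pyrimidine followed by a purine at the start, the shares were 68.1% and 66.7%, and the interval of the difference included 0 (-3.48 to 5.88). The TATA-like match shown above was found at 2.90% against 0.877%, a difference of 2.02 points (0.746 to 4.05). The GC box GGGCGG, searched on both strands within 50 nts before the start, was found at 9.82% against 15.6%, by -5.81 points (-8.65 to -2.41). For all 3 motifs the interval of the difference from intermediate daTSSs included 0. A match describes the letters in the window and is no evidence of a bound factor.

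TATA-like letters were also more frequent at the gene TSSs of the distant group, a comparison that was added after the data were seen. TATAA or TATAT stood 35 to 24 nts before 35 of the 448 gene TSSs (7.81%), against 2.71% of the others and 3.0% of all gene TSSs. The difference was 5.10 points (2.84 to 8.02), and 4.03 points against intermediate daTSSs (1.48 to 7.07). Of the 35, 6 were histone genes. Without histone genes the shares were 6.58% (4.45% to 9.31%) and 2.32% (1.77% to 2.99%). The initiator-like letters at the gene TSS were found at 24.1% against 18.3%, a difference of 5.85 points (1.80 to 10.3). With a limit of 1200 nts this difference was 4.0 points, and its interval included 0 (-0.915 to 9.68).

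A list of immediate early and signal-dependent genes was set beside the distances. Its 46 symbols gave 44 called gene TSSs. A daTSS was called at 18 of the 44 (40.9%), beside 28.4% over all gene TSSs. Of these 18, 9 (50%, 26.0% to 74.0%) were distant, beside 15.2% over all daTSSs. The list was drawn up with earlier results of these data known. With 1200 nts as the limit, 3 of the 18 (16.7%) remained, beside 8.66% over all daTSSs, because 6 of the 9 lay at 1037 to 1196 nts.

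These 9 genes encode rapid-response transcription factors, phosphatases and regulators of growth arrest. The AP-1 subunit genes JUND and FOSB had daTSSs at 1138 and 1815 nts, and JUN, which was not distant, at 743 nts. MYC and KLF4 had theirs at 1196 and 1194 nts, and KLF6 at 1763 nts. The MAP kinase phosphatase genes DUSP6 and DUSP2 had theirs at 1037 and 1101 nts, and GADD45A, a growth arrest and DNA damage gene, at 1517 nts. In TSC22D3, a glucocorticoid-induced gene, the daTSS was at 1169 nts.

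The 9 genes are mostly short and low in RNA beside the distant group as a whole. Cells in stripped serum were the 1 condition measured, so an effect of serum was not tested. The median length of the 9 genes was 5631 nts, against 36678 nts over the distant group. Their median FPKM was 4.80, against 23.2, and ran from 0.779 in FOSB to 35.7 in JUND. The 9 list genes with a nearer daTSS overlapped them in both respects. Those genes ran from 1252 nts in CEBPD to 46059 nts in PER2, and from an FPKM of 2.05 in DUSP1 to 42.4 in ZFP36L1. A uaTSS was called at 5 of the 9 genes with a distant daTSS, at KLF4, KLF6, DUSP6, JUND and TSC22D3, beside 54.7% over the distant group and 53.1% over all gene TSSs. Another annotated start of the same gene followed within 1000 nts of the daTSS in 4 of the 9, MYC, KLF4, DUSP6 and FOSB. Over the distant group this share was 18.2%, and over the other daTSSs 30.4%. In KLF4 the daTSS was also 14 nts from the start of a lncRNA on its own strand.

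**Figure D3:**
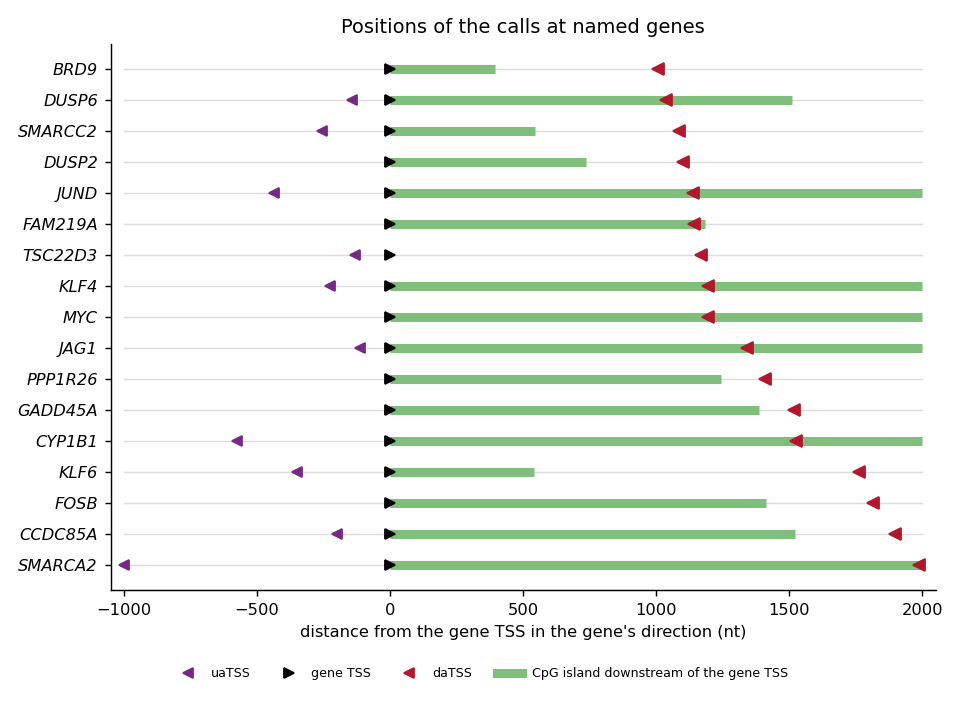
Positions of the calls at 17 named genes by distance from the gene TSS in nts (x axis), with the uaTSS (purple), gene TSS (black) and daTSS (red) as arrowheads in the direction of transcription and the CpG island downstream of the gene TSS in green, drawn up to 2000 nts. In MYC, KLF4, JUND, DUSP6, JAG1, CYP1B1, FAM219A and SMARCA2 the daTSS lies within the island, and in TSC22D3 the gene TSS is in none.

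The remaining named genes are ESR1 and members of the chromatin remodeling list. In ESR1, the estrogen receptor gene, the daTSS was at 1236 nts. It has both the initiator-like and the TATA-like letters and lies in intron 1, and its gene TSS had a uaTSS at 380 nts. Of 13 daTSSs in remodeling and deacetylase genes, 3 were distant, in BRD9 at 1007 nts, SMARCC2 at 1087 nts and SMARCA2 at 1989 nts. This share, 23.1%, had an interval of 5.04% to 53.8%, which includes the 15.2% over all daTSSs.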

How the data were processed

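Start-seq TSS calls of replicate 1 and FPKM values of RNA-seq merged over 3 replicates were used. The authors aligned Start-seq reads to hg19 with Bowtie 0.12.8 after cutadapt 1.2.1, called a daTSS at the opposite-strand position with most reads within 2000 nts (at least 5 reads) and removed calls near other starts. The deposited calls are positions whose score is 0 throughout. The deposited FPKM values were made by the authors with TopHat2 2.0.4, Picard 1.118 and Cufflinks 2.2.1. The FPKM table had 0 columns of unmapped samples and 28 symbols turned into dates.

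Each gene TSS took the gene of the nearest GENCODE 44 start (lifted to GRCh37, the same sequence as hg19) within 1000 nts on its strand, and FPKM was matched by symbol or by RefSeq synonym at the same locus, for 10243 of 10391 gene TSSs. Shares have Clopper-Pearson, differences Newcombe, medians order-statistic and pair percentages DeLong intervals (numpy 2.4.6, scipy 1.17.1, pandas 2.3.3 in Python 3.11.15, figures with matplotlib 3.10.9), tested on simulated data. No p-values were computed, because there is 1 library and 1 merged column.

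The members and lists were chosen with earlier results of these data known. Named genes are the extremes in FPKM, distance and gene length, the 5 on each side of the limit, list members (1 list is not reported here in full), the 5 nearest antisense annotated starts and the first 5 with a TATA-like match. The alternatives were other comparison groups, limits, windows, motifs, islands, FPKM filters and pseudocounts, leaving out neighbouring gene TSSs, and 1 gene TSS per symbol. The comparisons of uaTSS distance, first exon length and motifs at the gene TSS were added after the data were seen.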

Additional observations from a re-analysis of the deposited data

How the results depend on the processing

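Of 113 alternatives, 100 kept the direction and the side of the interval. Against intermediate daTSSs (beyond 525 nts) alone, intervals came to include no difference for annotated starts on the gene strand (-4.24 points), the initiator-like letters (2.94), the GC box (-1.52), the TATA-like letters (1.37), FPKM (52.7% of pairs) and first intron length (53.0%). So did the uaTSS share without neighbouring gene TSSs (-5.05 points), starts on the daTSS strand within 100 nts (-0.863) or of protein-coding transcripts (-1.04, added after seeing the data) and a pyrimidine-purine start (1.33). So did initiator-like letters at the gene TSS with a limit of 1200 nts (4.0 points, added after seeing the data). The island share at gene TSSs turned to 1.32 points with stricter islands. The share of distant calls among immediate early genes was 16.7% with a limit of 1200 nts, which by construction counts fewer calls as distant (added after seeing the data). The cause of the other changes was not tested.

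No paired analysis was possible because only 1 Start-seq replicate has calls and the RNA levels are 1 merged column, so leaving out a replicate was not possible either. A count of divergent neighbours among gene TSSs without neighbours has no value by construction. Depth per call is unknown, and a start under the authors' read threshold or beyond 2000 nts would not be in the lists.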

Other observations

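Other gene groups, listed by symbol, gave the following counts of distant calls. Of 104 daTSSs in zinc finger genes, 13 (12.5%, 6.83% to 20.4%) were distant, and of 54 in solute carrier genes 4 (7.41%, 2.06% to 17.9%), beside 15.2% over all daTSSs. Of 19 daTSSs in ribosomal protein genes 0 were distant. A limit of 3 counts allows a share of up to 15.8%, the Clopper-Pearson upper bound is 17.6%, and their daTSSs lay at 73 to 990 nts. The 4 daTSSs in genes of Pol II pausing and elongation, CDC73, CDK9, LEO1 and NELFCD, lay at 283 to 745 nts, and for 0 of 4 the limit of 3 counts is 75% and the Clopper-Pearson bound 60.2%.

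Developmental transcription factor families gave 7 distant calls among 26 daTSSs (26.9%, 11.6% to 47.8%). The 7 distant daTSSs lay at 1178 to 1864 nts, and the FPKM of their genes ran from 1.17 to 7.74. Of these 7, 6 were inside the CpG island of the gene TSS. That share was 18.5% over the distant group and 52.6% over the other daTSSs. KLF4 and KLF6 are counted here and in the immediate early list.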
